A study of Mus musculus with 27 samples.

Results

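The enzymes and binding proteins that write, copy, read and erase DNA methylation were followed across 9 sorted groups of mouse CD4 T cells. The list held 10 genes, chosen by name and function: Dnmt1, Dnmt3a, Dnmt3b, Uhrf1, Tet1, Tet2, Tet3, Tdg, Mbd2 and Mbd4. Every probe set that the array's annotation assigns to one of these symbols and to no other was used, which gave 24 probe sets for 9 of the 10 genes, among 18194 genes measured in that way. Each probe set of Tdg, a thymine DNA glycosylase, is also annotated to Tdg pseudogenes, so no value is given for it. The probe set with the highest mean over all arrays represents each gene, and other probe sets are given where they change a call or its direction.

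Messenger RNA was measured on 27 Affymetrix arrays, 3 for each group, from BALB/c mice. All cells were T lymphocytes sorted with a green fluorescent reporter of Foxp3, the lineage factor of regulatory T cells (Tregs). From thymus came Treg precursors (CD4 single-positive, Foxp3-, CD25+), Foxp3+ Tregs with high, intermediate or low CD24 (CD24hi, CD24int and CD24lo) and Foxp3- conventional cells at the same CD24 levels. From lymph node came Tregs and naive T cells. CD24 falls as thymocytes mature. The age and sex of the mice, and whether animals were pooled, are not given in the sources used here. Nothing in the labels says that the 3 arrays of a group came from separate mice, so p-values measure the spread between arrays, which may be technical.

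Cytosine methylation at CpG sites is set by the de novo enzymes Dnmt3a and Dnmt3b and copied after replication by Dnmt1, which Uhrf1 brings to hemimethylated DNA. It is lost passively, when copying fails in dividing cells, or actively, when TET enzymes oxidise the methyl group and glycosylases such as Tdg start base repair. In Tregs an intronic enhancer of Foxp3, known as the Treg-specific demethylated region, loses methylation during development and keeps Foxp3 expression stable. The arrays measure the messenger RNA of the enzymes, not methylation.

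The Foxp3 signal followed the sort. Its group means were 3.80 to 4.17 on the log2 intensity scale in the Foxp3- groups, the precursors and the naive cells, and 9.90 to 10.07 in the Foxp3+ and lymph node Treg groups. Il2ra, which encodes CD25, had a mean of 8.16 in precursors, 4.22 to 4.45 in the Foxp3- and naive groups and 9.90 to 10.26 in the Tregs. From CD24hi to CD24lo, Cd24a group means were 10.93, 8.21 and 6.00 in Foxp3- and 10.34, 9.08 and 7.63 in Foxp3+ cells. At CD24lo Cd24a was 1.62 higher in Foxp3+ cells (limma, adjusted p = 0.00569), so the classes were not matched in its RNA there. At CD24hi and CD24int its differences were -0.59 and 0.87 (adjusted p = 0.419 and 0.201). The T cell gene Cd3e was at 10.48 or higher on all 27 arrays. Some groups also carried markers of other cells. Of 9 measured markers of NK, NKT and gamma delta T cells, the summed intensity was 10520 to 11090 in Foxp3- CD24lo and at most 2504 in any array of the other groups. Of 8 measured markers of double-positive thymocytes, it was 2013 to 3739 in precursors and 1842 to 1956 in Foxp3- CD24hi. The third Foxp3- CD24hi array stood apart in its liver genes, with a summed intensity of 5799 over 4 genes against at most 126 on any other array. These liver genes were already known from an earlier result of these data to be high on that array, so this is no independent check. Leaving that array out changed no member's call in the comparisons that use its group.

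A moderated F test in limma, adjusted by Benjamini-Hochberg over all 18194 genes, found 8 of the 9 measured members to differ among the 9 groups. The same test called 39.8% of all genes. The span between the highest and lowest group mean was 2.90 log2 units for Uhrf1, 2.56 for Tet1, 1.75 for Dnmt3b, 1.52 for both Dnmt3a and Tet2, 1.22 for Dnmt1, 0.95 for Mbd4 and 0.84 for Mbd2, with a median of 0.45 over all genes. Tet3 spanned 0.52 and did not pass (adjusted p = 0.778). Each comparison of a pair of groups below used the same limma fit and adjustment, with a gene called at an adjusted p under 0.05. In these bulk samples, a change in the share of cells that express a gene and a change in the RNA per cell cannot be told apart.

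**Figure D1:**
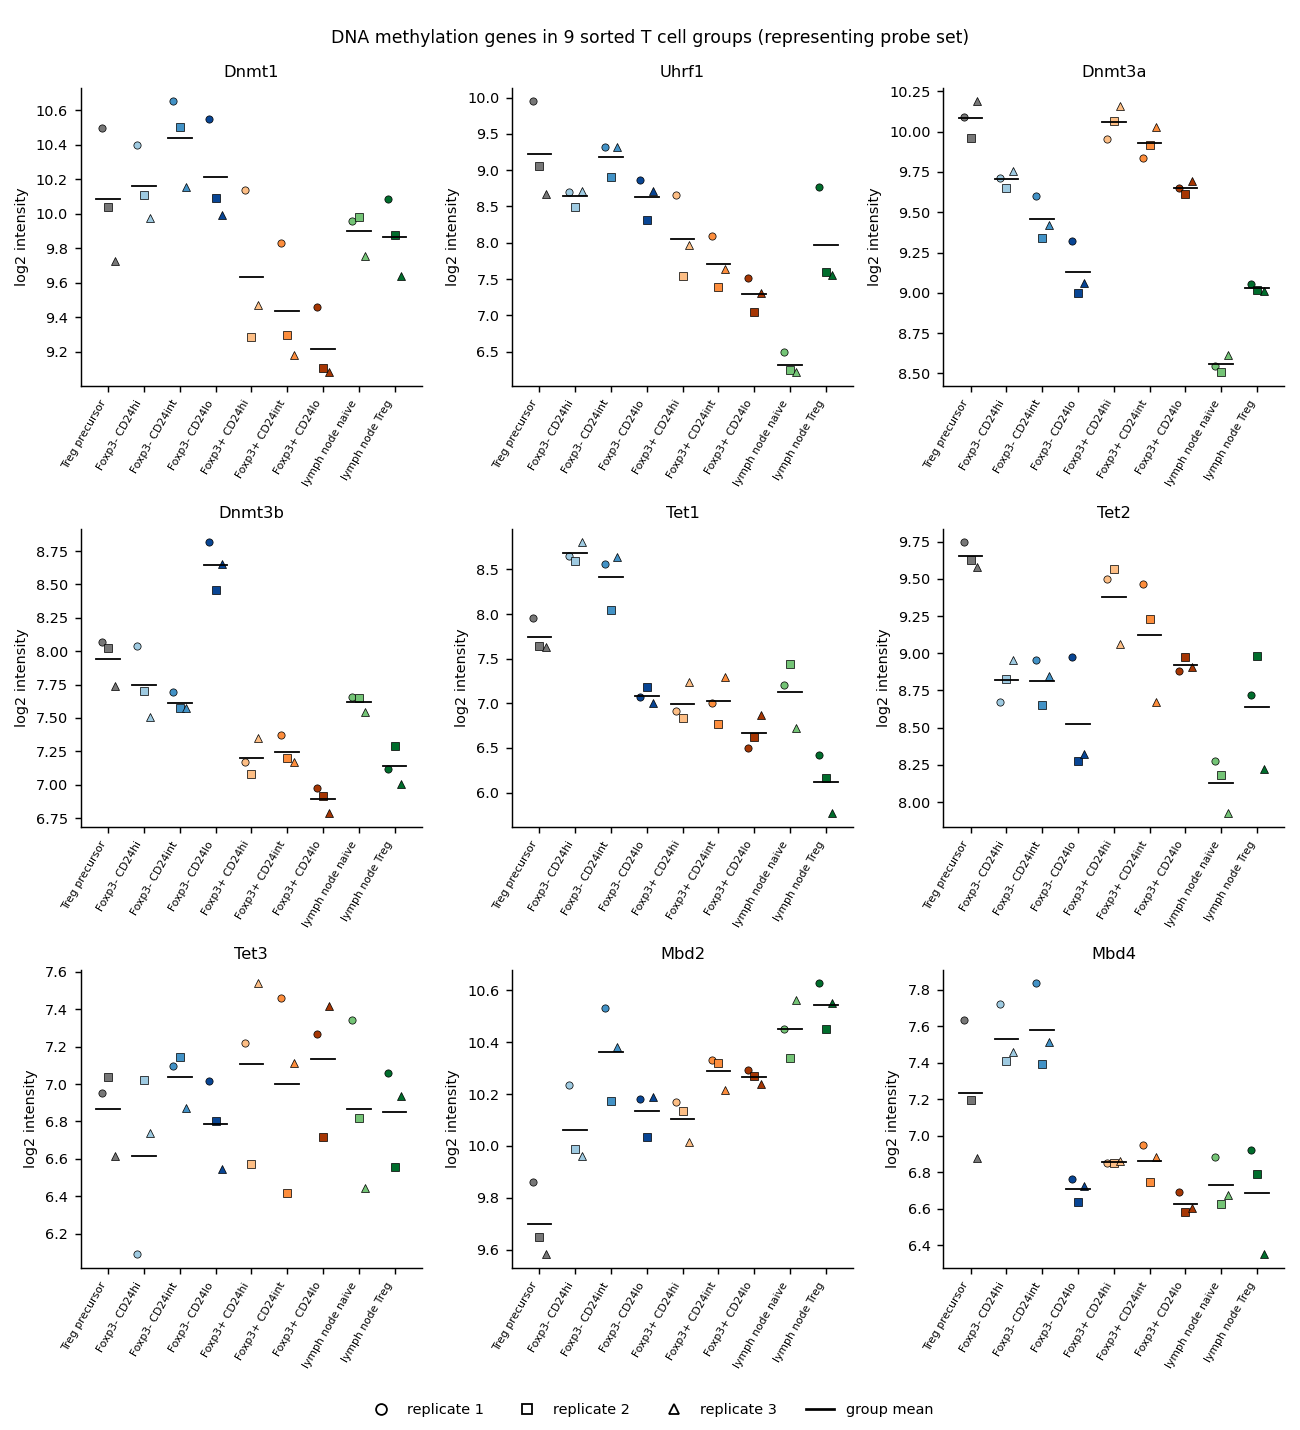
Log2 intensity of the representing probe set of each measured member on all 27 arrays, by group (circle, square and triangle: replicates 1, 2 and 3; line: group mean; each panel has its own scale). Dnmt3a by this probe set is higher on every Treg array than on any array of the matched Foxp3- or naive group, Tet1 is highest in Foxp3- CD24hi and CD24int cells, and Dnmt3b is highest in Foxp3- CD24lo cells.

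Between Tregs and conventional cells, 4 of 9 members were called at CD24hi, Dnmt3a higher and Dnmt3b, Tet1 and Mbd4 lower, where 18.0% of all genes were called. At CD24int 5 of 9 were called (15.3% of genes), Dnmt3a higher and Dnmt1, Uhrf1, Tet1 and Mbd4 lower. At CD24lo 4 of 9 were called (21.0% of genes), Dnmt3a higher and Dnmt1, Dnmt3b and Uhrf1 lower. In lymph node 4 of 9 were called (12.4% of genes), Dnmt3a and Uhrf1 higher in Tregs and Dnmt3b and Tet1 lower. The median difference of the 9 members was -0.53 at CD24hi, -0.36 at CD24int, -0.08 at CD24lo and -0.02 in lymph node, beside medians between -0.04 and 0.00 over all genes. Same-numbered arrays deviated together at CD24hi, and a fit that took the replicate number as a block called 7 of 9 there. The 18.0% of genes belongs to the fit without the block, and the share with the block is not given. Of the 9 NK, NKT and gamma delta T cell markers, 2 were higher and 0 lower in Foxp3+ cells at CD24hi, 1 and 5 at CD24int, 0 and 9 at CD24lo, and 0 and 4 in lymph node Tregs, and their part in the member differences was not tested.

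**Figure D2:**
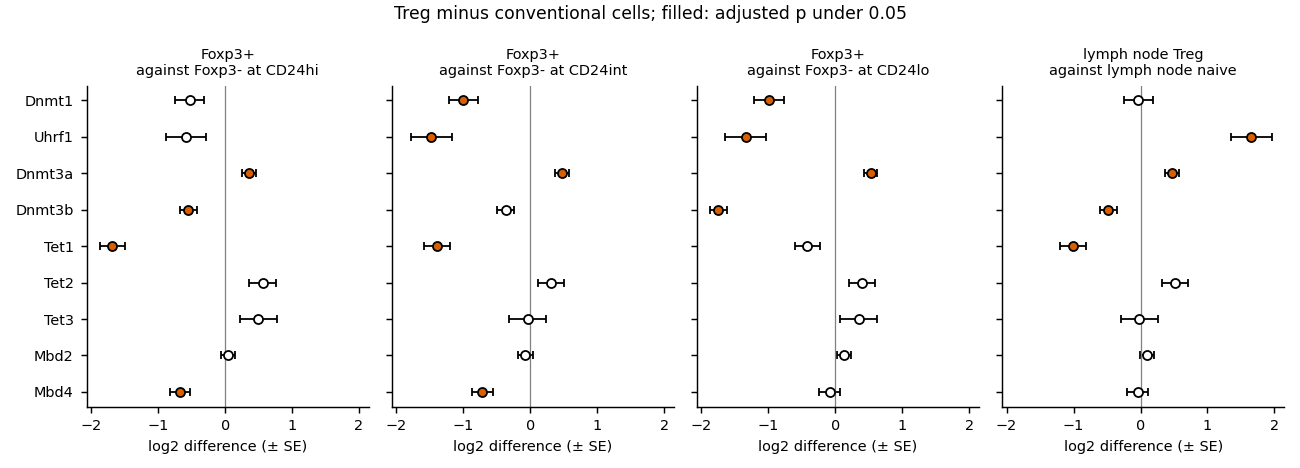
Log2 difference (± SE) between Tregs and matched conventional cells for the 9 measured members at CD24hi, CD24int, CD24lo and in lymph node; filled points have an adjusted p under 0.05 in limma, 3 arrays a group. Dnmt3a is above 0 and filled in all 4 panels, Uhrf1 lies below 0 in thymus and above 0 in lymph node, and Dnmt3b reaches -1.75 at CD24lo.

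Thymic Tregs carried less maintenance methylation mRNA than conventional cells at the CD24int and CD24lo stages, whereas lymph node Tregs carried more Uhrf1 than naive cells. Uhrf1, the reader of hemimethylated DNA, measured 9.32, 8.91 and 9.32 in replicates 1, 2 and 3 of Foxp3- CD24int and 8.09, 7.39 and 7.64 in Foxp3+ CD24int. At CD24lo it measured 8.87, 8.32 and 8.71 in Foxp3- and 7.51, 7.04 and 7.31 in Foxp3+ cells. The Foxp3+ arrays lay below all Foxp3- arrays at both stages. Uhrf1 was lower in Foxp3+ cells, by 1.48 ± 0.30 (SE) on the log2 scale at CD24int, 2.78-fold (limma, adjusted p = 0.000965), and by 1.34 ± 0.30 at CD24lo, 2.53-fold (adjusted p = 0.00166). In lymph node the order was the opposite, with 6.50, 6.25 and 6.22 in naive cells and 8.77, 7.60 and 7.56 in Tregs, and no overlap. Uhrf1 there rose by 1.65 ± 0.30 in Tregs, 3.14-fold (adjusted p = 0.000292). The second probe set, 1415811_at, was called in the same directions, with -1.49 at CD24int, -0.93 at CD24lo and 1.22 in lymph node, and was at -0.75 at CD24hi (adjusted p = 0.103). The p-values of single probe sets were adjusted over all single-symbol probe sets.

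Dnmt1, the maintenance methyltransferase, shared the thymic part of this pattern. At CD24int its arrays read 10.65, 10.50 and 10.16 in Foxp3- and 9.83, 9.30 and 9.18 in Foxp3+ cells, and at CD24lo 10.55, 10.09 and 9.99 against 9.46, 9.11 and 9.08. The groups did not overlap at either stage. Dnmt1 was lower in Foxp3+ cells by 1.00 ± 0.22 at CD24int (2.00-fold, adjusted p = 0.00181) and by 0.99 ± 0.22 at CD24lo (1.99-fold, adjusted p = 0.0013). Its other 2 probe sets were also called lower at both stages, by 0.93 to 0.97. In lymph node Dnmt1 measured 9.96, 9.98 and 9.75 in naive cells and 10.09, 9.87 and 9.64 in Tregs, which overlapped (difference -0.03 ± 0.22, adjusted p = 0.967).

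At CD24hi the maintenance pair overlapped between Foxp3 classes. Uhrf1 measured 8.70, 8.50 and 8.72 in Foxp3- and 8.65, 7.54 and 7.96 in Foxp3+ cells (-0.59 ± 0.30, adjusted p = 0.217). Dnmt1 measured 10.40, 10.11 and 9.97 against 10.14, 9.29 and 9.47 (-0.53 ± 0.22, adjusted p = 0.106). The first Foxp3+ array was the highest of its group for both genes. With the replicate block both genes passed (adjusted p = 0.0324 for Uhrf1 and 0.00129 for Dnmt1), as did Dnmt1 by its probe set 1422946_a_at (-0.50, adjusted p = 0.049) and Dnmt1 without the first Foxp3+ CD24hi array (-0.78, adjusted p = 0.0164).

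The maintenance pair moved with DNA replication genes, and also with genes of G2 and M phase. Of 22 measured S phase genes, 0 were higher and 17 lower in Foxp3+ cells at CD24int, 0 and 14 at CD24lo, and 10 higher and 0 lower in lymph node Tregs than in naive cells. At CD24hi 3 were lower and 0 higher, a share below the 18.0% of all genes called there. The share of all genes called was 15.3% at CD24int, 21.0% at CD24lo and 12.4% in lymph node. Over the 9 group means, Pearson's r with the mean of the S phase genes was 0.96 for Uhrf1, 0.78 for Dnmt1, 0.66 for Mbd4, 0.56 for Dnmt3b, 0.54 for Tet1, 0.31 for Tet2, 0.25 for Dnmt3a, -0.25 for Tet3 and -0.43 for Mbd2. Over the deviations of the 27 arrays from their group means it was 0.94 for Uhrf1, 0.72 for both Dnmt1 and Mbd4 and 0.67 for Mbd2, and 0.18 to 0.47 for the other 5 members. The relation with S phase genes was not limited to the maintenance pair. Nor was it limited to S phase genes. With the mean of 20 measured G2 and M phase genes, r over the group means was 0.91 for Uhrf1 and 0.76 for Dnmt1. Over the deviations it was 0.85 for Uhrf1, 0.83 for Dnmt1, 0.79 for Mbd2 and 0.76 for Mbd4, and 0.10 to 0.51 for the other 5 members. These are descriptions, since the points share arrays and groups. The first replicate was above its group mean in 9 of 9 groups for Uhrf1 (by 0.37 on average), for Dnmt1 (by 0.29) and for the S phase mean (by 0.21). It was above in 8 groups for Tet3, Mbd2 and Mbd4, in 7 for Dnmt3b and Tet2, in 5 for Dnmt3a and in 4 for Tet1. The part of cycling cells in the differences of Uhrf1, Dnmt1 and the other members was not tested.

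**Figure D3:**
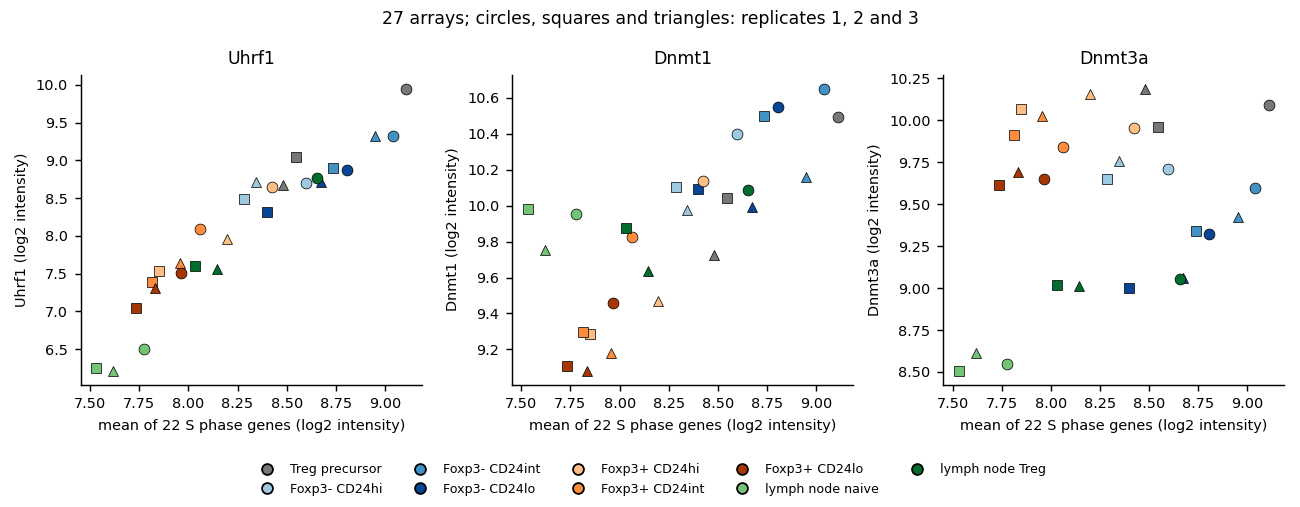
Log2 intensity of Uhrf1, Dnmt1 and Dnmt3a against the mean log2 intensity of 22 S phase genes on each of the 27 arrays (colour: group; circle, square and triangle: replicates 1, 2 and 3). Uhrf1 rises along the S phase mean across the groups (r = 0.96 over the 9 group means), Dnmt1 less closely (0.78), and Dnmt3a shows little relation (0.25).

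Because Uhrf1 and Dnmt1 moved with replication genes, their promoters were searched for 4 forms of the E2F site (TTTCGCGC, TTTGGCGC, TTTCCCGC and TTTGCCGC) on both strands, in windows from 250 bases before to 50 after each RefSeq start on GRCm38.p6. E2F factors bind such sites in many genes of DNA synthesis. The forms occurred in 744 of 32851 windows (2.26%), and in 2.6% of genes. Of the 14 windows of 9 members (not Mbd2), 2 held any match, 1 of Uhrf1 and 1 of Dnmt1. Each form contains a CpG, and these 2 windows held 33 CpG each, against a median of 7 over all windows. The share of matches among windows of like CpG content is not given. The Uhrf1 match begins 185 bases before the start, on the gene's strand, in the 250 bases before the start at chr17:56304063-56304312 (+ strand). The first of 2 Dnmt1 matches, on the opposite strand, begins 219 bases before 1 of its 3 annotated starts and lies in the 30 bases at chr9:20952824-20952853 (- strand). Both are printed 5′ to 3′ on the gene's strand with the match in capitals.
Uhrf1: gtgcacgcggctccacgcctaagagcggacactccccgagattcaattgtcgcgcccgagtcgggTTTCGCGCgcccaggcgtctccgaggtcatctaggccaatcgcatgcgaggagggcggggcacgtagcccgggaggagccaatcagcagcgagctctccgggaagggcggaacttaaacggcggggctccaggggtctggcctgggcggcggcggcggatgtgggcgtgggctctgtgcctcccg
Dnmt1: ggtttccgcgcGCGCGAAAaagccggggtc
A match is a run of letters and not a measured binding site. The same search matched 7 of the 18 S phase genes that had a window.

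Dnmt3a, a de novo methyltransferase, was higher in Tregs than in conventional cells at all 3 CD24 stages and in lymph node by its representing probe set, 1423063_at. At CD24lo it measured 9.32, 9.00 and 9.06 in Foxp3- and 9.65, 9.61 and 9.70 in Foxp3+ cells. In lymph node it measured 8.55, 8.51 and 8.62 in naive cells and 9.05, 9.02 and 9.01 in Tregs. All Treg arrays lay above all conventional arrays in both places. It rose by 0.36 ± 0.10 at CD24hi (adjusted p = 0.0115), 0.47 ± 0.10 at CD24int (0.00109), 0.52 ± 0.10 at CD24lo (0.000225) and 0.47 ± 0.10 in lymph node (0.00124), which is 1.28-fold to 1.44-fold. The CD24hi call was lost without the second Foxp3- CD24hi array (0.33, adjusted p = 0.0508) or the third Foxp3+ CD24hi array (0.31, 0.0571).

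The 5 probe sets of Dnmt3a did not give 1 answer. A second one, 1460324_at, was called higher at CD24int (0.68), CD24lo (0.71) and lymph node (0.49), with 0.41 and an adjusted p of 0.0786 at CD24hi. The probe set 1423064_at measured 8.87, 8.50 and 8.63 in Foxp3- CD24hi cells and 7.90, 7.56 and 8.22 in Foxp3+ CD24hi cells, without overlap. It was called in the opposite direction there (-0.77 ± 0.15, adjusted p = 0.00082). At the other stages its difference was 0.01 at CD24int, -0.10 at CD24lo and 0.32 in lymph node, none of them called. The remaining 2, 1423065_at and 1423066_at, varied more between replicates and were called in none of these 4 comparisons. They were at -0.36 and -0.83 at CD24hi and between 0.15 and 0.42 in the other 3. The mean of all 5 was -0.24 ± 0.18 at CD24hi (adjusted p = 0.458) and 0.33 to 0.42 in the other 3 comparisons, also not called. Which transcripts each probe set detects was not analysed here, so the direction for Dnmt3a holds for 2 of its probe sets.

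**Figure D4:**
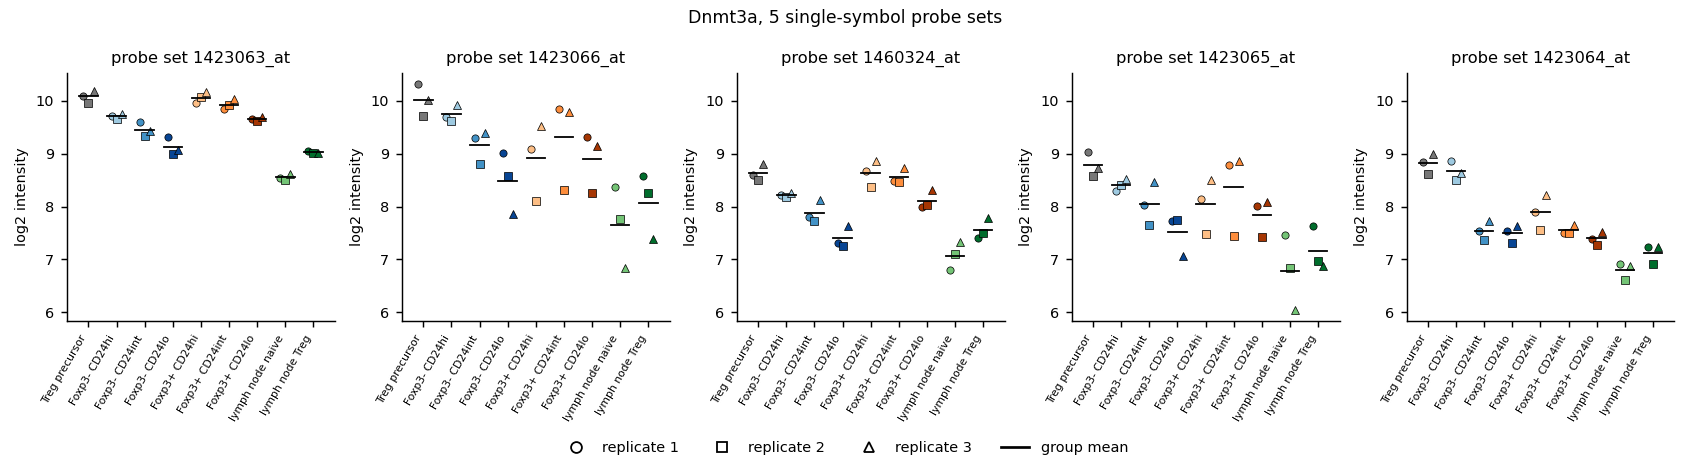
Log2 intensity of the 5 single-symbol probe sets of Dnmt3a on all 27 arrays, by group (circle, square and triangle: replicates 1, 2 and 3; line: group mean; one common scale). Probe sets 1423063_at and 1460324_at are higher in Foxp3+ than in Foxp3- cells at each CD24 level, while 1423064_at is lower in Foxp3+ than in Foxp3- cells at CD24hi.

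Dnmt3b, the other de novo methyltransferase, was lower in Tregs. At CD24lo it measured 8.82, 8.46 and 8.65 in Foxp3- and 6.97, 6.92 and 6.79 in Foxp3+ cells, a fall of 1.75 ± 0.13 on the log2 scale, 3.37-fold (adjusted p = 7.57e-11). At CD24hi it measured 8.04, 7.70 and 7.51 against 7.17, 7.08 and 7.35, a fall of 0.55 ± 0.13 (0.0026). At CD24int it measured 7.69, 7.57 and 7.57 against 7.37, 7.20 and 7.17 (-0.36 ± 0.13, adjusted p = 0.0543). The classes did not overlap at any stage. CD24int missed the threshold here and passed in 5 of the 27 fits without 1 array (-0.43 to -0.36, adjusted p = 0.0318 to 0.0492), namely replicate 1 of Foxp3+ CD24int or of Foxp3- CD24lo, 1 or 3 of Foxp3- CD24hi, or 3 of the precursors. The CD24int value also passed after quantile normalization (-0.42, adjusted p = 0.0172), without dim genes (-0.36, 0.0341) and for the mean of its probe sets (-0.40, 0.00847). In lymph node, 7.65, 7.65 and 7.54 in naive cells and 7.12, 7.29 and 7.01 in Tregs gave a fall of 0.48 ± 0.13 (0.0112), which was lost without the third Treg array (-0.41, adjusted p = 0.0705). The second probe set, 1418351_a_at, was called lower at all 3 thymic stages (by 0.45, 0.44 and 1.39) and not in lymph node (-0.24, adjusted p = 0.257).

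The large CD24lo gap came with a rise within the Foxp3- class. Dnmt3b rose by 1.03 ± 0.13 from Foxp3- CD24int to CD24lo (2.04-fold, adjusted p = 1.55e-06), and each Foxp3- CD24lo array lay above every array of the other groups, of which the highest was 8.07. Within the Foxp3+ class the same step was -0.36 ± 0.13 and was not called (adjusted p = 0.835). The difference of the 2 steps was -1.39 ± 0.18 (adjusted p = 1.17e-05). This test and the CD24lo comparison share arrays. The 9 measured NK, NKT and gamma delta T cell markers rose in this same Foxp3- step, 9 of 9 with a median difference of 3.58 log2 units. Zbtb16, a factor of NKT cells and other innate-like T cells, had a group mean of 10.90 in Foxp3- CD24lo and 6.89 in Foxp3- CD24int, the gamma delta T cell receptor gene Trgv4 was at 12.38 and 7.72, and Ncr1, which defines NK cells, was at 4.76 and 4.25. The part of those cells in the differences of this step, for Dnmt3b as for Dnmt3a, Tet1 and Mbd4, was not tested.

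Tet1, a methylcytosine dioxygenase, had its lowest thymic levels in Foxp3+ cells. At CD24hi it measured 8.64, 8.60 and 8.80 in Foxp3- and 6.91, 6.83 and 7.24 in Foxp3+ cells. At CD24int it measured 8.56, 8.04 and 8.64 against 7.01, 6.77 and 7.29. The classes were far apart at both stages. Tet1 was lower in Foxp3+ cells by 1.69 ± 0.19 at CD24hi, 3.22-fold (adjusted p = 2.29e-07), and by 1.39 ± 0.19 at CD24int, 2.63-fold (5.04e-06). At CD24lo the Foxp3- arrays had come down to 7.07, 7.18 and 7.01 and the Foxp3+ arrays were at 6.50, 6.62 and 6.87. That gap of -0.42 ± 0.19 was not called (adjusted p = 0.136), though the arrays did not overlap, and passed in a fit of the compared groups alone (adjusted p = 0.0413). In lymph node Tet1 measured 7.20, 7.44 and 6.73 in naive cells and 6.42, 6.17 and 5.77 in Tregs, a fall of 1.01 ± 0.19 (2.01-fold, adjusted p = 0.000367).

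Tet1 fell by 1.33 ± 0.19 from Foxp3- CD24int to CD24lo (adjusted p = 1.16e-05) and not detectably from Foxp3+ CD24int to CD24lo (-0.35 ± 0.19, adjusted p = 1.0). The difference of the steps was 0.98 ± 0.27 (adjusted p = 0.0304). It missed the threshold (0.85 to 1.00, adjusted p = 0.0535 to 0.0997) in 8 of the 27 fits that left out 1 array, namely replicate 1 or 2 of Foxp3+ CD24int, 1 or 3 of Foxp3- CD24int or of Foxp3- CD24lo, or 2 or 3 of Foxp3+ CD24lo. It was not called by probe set 1419896_at (0.64, adjusted p = 0.424) or 1419897_at (0.68, 0.0827). The fall in the Foxp3- step, in which the 9 NK, NKT and gamma delta T cell markers rose, was called by all 4 probe sets. Between Tregs and conventional cells, 1455425_at and 1419896_at were called lower at CD24hi, CD24int and lymph node, by 1.14 to 1.40. The dim 1419897_at, with a mean of 4.06 over the arrays, was at 0.12 at CD24hi and -0.02 in lymph node. At CD24int its group mean was lower in Foxp3+ than in Foxp3- cells (3.86 against 4.31). Its r with the representing probe set was 0.02 over the 9 group means.

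Tet2, the related dioxygenase, had its highest level in precursors, at 9.75, 9.63 and 9.58. The Foxp3- CD24hi arrays were at 8.67, 8.82 and 8.96, and the Foxp3+ CD24hi arrays at 9.50, 9.57 and 9.06. Precursors lay above both groups, but Foxp3+ CD24hi cells were not called against precursors (-0.27 ± 0.20, limma, adjusted p = 0.438). By the second probe set, 1455300_at, the arrays of those groups overlapped. Tet2 rose by 0.83 ± 0.20 from Foxp3- CD24hi cells to precursors (1.78-fold, adjusted p = 0.00644), and the second probe set gave 0.86 (0.00106). Between Foxp3+ and Foxp3- cells it was not called at CD24hi (0.56 ± 0.20, adjusted p = 0.0535), CD24int (0.31, 0.386) or CD24lo (0.40, 0.194), nor in lymph node (0.51, 0.107). With the replicate block the CD24hi and lymph node values passed (adjusted p = 0.0179 and 0.0397), as did CD24lo without the first Foxp3- CD24lo array (0.62, adjusted p = 0.0314) and lymph node without the third Treg array (0.72, 0.0222). The CD24hi value also passed in 6 of the 27 fits without 1 array (0.56 to 0.72, adjusted p = 0.0221 to 0.0447), namely replicate 3 of Foxp3+ CD24hi, 1 or 3 of Foxp3+ CD24int, 1 of Foxp3- CD24lo, or 2 or 3 of lymph node Tregs. At CD24hi Tet2 passed without dim genes too (adjusted p = 0.0369), and for the mean of its probe sets (0.51, 0.0336). Tet3 ranged from 6.09 to 7.54 over the 27 arrays and was called in 0 of the 15 comparisons, also at an unadjusted p under 0.05.

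Mbd4, a glycosylase that removes mismatched thymine and uracil at CpG sites, was lower in Foxp3+ than in Foxp3- cells at CD24hi and CD24int. At CD24hi it measured 7.72, 7.41 and 7.46 in Foxp3- and 6.85, 6.85 and 6.86 in Foxp3+ cells, and at CD24int 7.83, 7.39 and 7.51 against 6.95, 6.75 and 6.88. The classes did not overlap. Mbd4 was lower in Foxp3+ cells by 0.67 ± 0.16 (1.60-fold, adjusted p = 0.00257) and 0.72 ± 0.16 (1.65-fold, 0.00161). Probe set 1457708_at was called at both stages (-0.70 and -0.65), and 1441079_at at CD24int (-0.48, adjusted p = 0.0482) but not at CD24hi (-0.26, 0.344). At CD24lo both classes were low, at 6.77, 6.64 and 6.73 in Foxp3- and 6.69, 6.58 and 6.61 in Foxp3+ cells (-0.08 ± 0.16, adjusted p = 0.818), and in lymph node the difference was -0.04 ± 0.16 (0.931). Like Tet1, Mbd4 fell from Foxp3- CD24int to CD24lo, by 0.87 ± 0.16 (adjusted p = 0.000249); 1457708_at was called there too (-0.71, 0.0181) and 1441079_at was not (-0.36, 0.187). For Mbd4 the difference between the Foxp3 classes in that step was 0.64 ± 0.22 and not called (adjusted p = 0.121). Mbd2, a methyl-CpG reader of the NuRD complex, differed by 0.13 or less between Foxp3 classes in all 4 comparisons and was called in none.

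Over the steps of maturation in Foxp3+ cells, 0 of 9 members were called from CD24hi to CD24int and 0 of 9 from CD24int to CD24lo, where 0.286% and 0.0165% of all genes were called. In Foxp3- cells 0 of 9 were called in the early step (5.01% of genes), and 4 of 9 in the late step (12.0%), namely Dnmt3b higher and Dnmt3a, Tet1 and Mbd4 lower. Dnmt3a fell by 0.33 ± 0.10 in that step (adjusted p = 0.0277), a call lost in each fit without replicate 1 or 3 of CD24int or replicate 2 or 3 of CD24lo (-0.34 to -0.26, adjusted p = 0.0555 to 0.163). None of its other 4 probe sets was called there (-0.05 for 1423064_at, adjusted p = 0.923; -0.48 for 1460324_at, 0.0511; -0.53 and -0.68 for 1423065_at and 1423066_at, 0.477 and 0.434), nor was the mean of all 5 (-0.41, 0.175). At an unadjusted p under 0.05 in limma there were 0 members in the early Foxp3+ step, Dnmt3a and Dnmt3b in the late one, Dnmt3a and Mbd2 in the early Foxp3- step, and Uhrf1 in the early-step difference between classes. The steps of the 2 classes differed for 0 of 9 members in the early step (1.54% of genes) and for Tet1 and Dnmt3b in the late one (4.97%). In the early Foxp3- step, the block let Mbd2 pass (0.30, adjusted p = 0.0272), and 1423064_at of Dnmt3a fell by 1.12 (4.85e-05) where the representing probe set gave -0.25.

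Precursors, which lack Foxp3 but carry CD25, shared the sign of some Foxp3+ differences and not of others; both were measured against the same Foxp3- CD24hi arrays. Against Foxp3- CD24hi cells, 4 of 9 members were called (9.11% of genes): Dnmt3a and Tet2 were higher, and Tet1 and Mbd2 lower. In the same comparison 7 of 9 NK, NKT and gamma delta T cell markers and 5 of 8 double-positive thymocyte markers were higher in precursors and 0 lower; the summed intensity of the first list was 989.7 to 2504 in precursors and 316.8 to 420.2 in Foxp3- CD24hi. Their part in the member differences was not tested. Dnmt3a measured 10.09, 9.96 and 10.19 in precursors and 9.71, 9.65 and 9.75 in Foxp3- CD24hi cells, without overlap, a rise of 0.38 ± 0.10 (adjusted p = 0.0133). None of its other 4 probe sets was called (0.15 to 0.41, adjusted p = 0.135 to 0.878), nor was the mean of all 5 (0.32, 0.391). Tet1 measured 7.95, 7.64 and 7.63, between the Foxp3- and Foxp3+ CD24hi arrays with no overlap on either side. It fell by 0.94 ± 0.19 from Foxp3- CD24hi to precursors (adjusted p = 0.00118) and by a further 0.74 ± 0.19 to Foxp3+ CD24hi (0.00692), the last not called by any of its other 3 probe sets (-0.43, -0.39 and 0.21). Mbd2 measured 9.86, 9.65 and 9.58 in precursors, below all arrays of Foxp3- CD24hi (10.23, 9.99 and 9.96) and Foxp3+ CD24hi (10.17, 10.13 and 10.01). Both Mbd2 differences rest on the same precursor arrays. The fall of 0.36 ± 0.11 (adjusted p = 0.0297) and rise of 0.41 ± 0.11 (0.00844) were not called by its second probe set.

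These precursor calls differed in how far they rest on 1 array. The Dnmt3a call was lost without the second Foxp3- CD24hi array (0.35, adjusted p = 0.0609) or the third precursor array (0.32, 0.0871). The Mbd2 fall was lost without the first Foxp3- CD24hi array (-0.28, adjusted p = 0.182) or replicate 2 or 3 of the precursors (-0.34 and -0.30, 0.105 and 0.159), and its rise without the third precursor array (0.35, 0.0529). Without the third precursor array the count was 2. Mbd4 passed without the first precursor array (-0.49, adjusted p = 0.0449). With the replicate block, Uhrf1 passed between precursors and Foxp3- CD24hi cells (0.59, adjusted p = 0.0492).

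From precursors to Foxp3+ CD24hi Tregs, 4 of 9 members were called (16.0% of genes), Mbd2 higher and Uhrf1, Dnmt3b and Tet1 lower. Uhrf1 measured 9.95, 9.05 and 8.67 in precursors, all above the Foxp3+ CD24hi arrays, of which the highest was 8.65. It fell by 1.18 ± 0.30 (2.26-fold, adjusted p = 0.00795), a call lost without the first precursor array (-0.81, 0.0771) or the second Foxp3+ CD24hi array (-0.92, 0.0748). Its second probe set was called too (-1.09, adjusted p = 0.016). Dnmt3b measured 8.07, 8.02 and 7.74 in precursors and fell by 0.74 ± 0.13 (1.67-fold, adjusted p = 0.00016). With the block, Dnmt1 (-0.46, adjusted p = 0.00503) and Mbd4 (-0.38, 0.0223) passed as well; each also passed without 1 array, Dnmt1 without the first Foxp3+ CD24hi array (-0.71, 0.0366) and Mbd4 without the third precursor array (-0.56, 0.0186). Mbd4 passed by the mean of its probe sets as well (-0.43, 0.0451). Dnmt3a was not called by its representing probe set, but fell by 0.92 by 1423064_at (adjusted p = 0.000166) and by 0.56 by the mean of all 5 (0.0398). Of the 22 S phase genes 9 were lower in Foxp3+ CD24hi cells and 0 higher. Of the 8 measured double-positive thymocyte markers 6 were lower and 0 higher, among them Rag1, with a group mean of 8.97 in precursors and 4.20 in Foxp3+ CD24hi cells. Of the 9 NK, NKT and gamma delta T cell markers 6 were lower and 0 higher. The part of cycling cells and of these other cells in these differences was not tested.

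Lymph node cells were compared with the CD24lo thymocytes of the same class. Uhrf1 fell by 2.31 ± 0.30 from Foxp3- CD24lo to naive cells, 4.96-fold (adjusted p = 3.64e-06), with no overlap of arrays. Dnmt3b fell by 1.03 ± 0.13 (1.54e-06) and Dnmt3a by 0.57 ± 0.10 (0.00014), while Mbd2 rose by 0.32 ± 0.11 (0.0472), so that 4 of 9 members were called (14.6% of genes). In this step 8 of 9 NK, NKT and gamma delta T cell markers were lower and 0 higher, and their part in the member differences was not tested. The Dnmt3a fall was called by 1423064_at (-0.69, adjusted p = 0.003) and not by the other 3 probe sets (0.223 to 0.272). The Mbd2 call was lost in 19 of the 27 fits that left out 1 array (0.26 to 0.34, adjusted p = 0.0503 to 0.193), and kept in those without replicate 2 of the naive cells, 1 or 3 of precursors, 3 of Foxp3+ CD24hi, 1 of Foxp3+ CD24int or of Foxp3- CD24hi, or 1 or 2 of Foxp3- CD24int. From Foxp3+ CD24lo to lymph node Tregs only Dnmt3a was called (5.93% of genes), with a fall of 0.62 ± 0.10 (adjusted p = 0.00014). Of its other probe sets 1460324_at was called as well, 1423064_at (-0.27, adjusted p = 0.512), 1423065_at (-0.67, 0.456) and 1423066_at (-0.84, 0.428) were not, and the mean of all 5 missed the threshold (-0.59, 0.0613). Dnmt1 passed by its probe set 1422946_a_at (0.63, adjusted p = 0.03), by its probe set mean (0.64, 0.0374) and in the compared groups alone (0.0285). With the block, Dnmt1 (0.65, adjusted p = 0.000472), Uhrf1 (0.68, 0.0274) and Mbd2 (0.28, 0.0445) passed there too, which made the count 4 of 9. The 5.93% of genes belongs to the fit without the block.

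The step from thymus to lymph node differed between Tregs and conventional cells for 3 of 9 members (11.0% of genes). The difference was 2.99 ± 0.43 for Uhrf1 (adjusted p = 1.86e-05), 1.27 ± 0.18 for Dnmt3b (1.48e-05) and 0.96 ± 0.31 for Dnmt1 (0.0458), each more positive in Tregs. Tet1 had the opposite sign and was not called by its representing probe set (-0.59, adjusted p = 0.201), but passed by 1455425_at (-1.02, 0.0165) and by the mean of its probe sets (-0.63, 0.00679). The Dnmt1 value lost its call in 13 of the 27 fits that left out 1 array (0.79 to 1.02, adjusted p = 0.052 to 0.141): replicate 1 or 2 of lymph node Tregs or of Foxp3- CD24lo, each of the naive cells, 2 or 3 of Foxp3+ CD24lo, or replicate 2 of precursors, Foxp3+ CD24int, Foxp3- CD24hi or Foxp3- CD24int. In the same test 17 of 22 S phase genes and 6 of 9 NK, NKT and gamma delta T cell markers were called higher and 0 lower. The summed intensity of 7 B cell markers was highest in lymph node, at 2607 to 4997 against at most 1663 in thymus. Most of that sum was Ighm, with group means of 11.25 in naive cells and 11.98 in Tregs. Blk and Pax5 did not follow. Blk had a mean of 6.98 in Foxp3- CD24lo and 4.37 and 4.36 in naive cells and Tregs, and Pax5 had 4.65, 4.61 and 4.58. The part of these cells in the member differences was not tested.

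Partners of the members were counted from lists set by function, and each count is to be read beside the 18.0%, 15.3%, 21.0% and 12.4% of all genes called at CD24hi, CD24int, CD24lo and in lymph node. Of 12 genes that help maintain or target methylation, 1 was higher and 2 lower in Foxp3+ cells at CD24hi, 1 and 4 at CD24int, 1 and 3 at CD24lo, and 5 and 0 in lymph node. The gene that rose at each stage was Uhrf2, a relative of Uhrf1, by 0.51 at CD24hi, 0.49 at CD24int and CD24lo and 0.61 in lymph node Tregs. Hells, a chromatin remodeller needed for methylation of repeats, fell by 1.26 at CD24int and 1.20 at CD24lo and rose by 0.75 in lymph node Tregs, the same directions as Uhrf1. Its partner Cdca7 fell by 0.46, 0.86 and 0.88 at the 3 stages and rose by 0.81 in lymph node.

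Of 22 measured TET partners and repair genes, 1 was higher and 3 lower at CD24hi, 4 and 3 at CD24int, 5 and 6 at CD24lo, and 4 and 1 in lymph node. The 18.2% called at CD24hi lay near the share of all genes, and the 50% at CD24lo above it. Idh2, a mitochondrial source of the TET cosubstrate 2-oxoglutarate, fell in all 4 comparisons, by 0.66 to 0.87. Neil1, a glycosylase that repairs oxidised bases, rose in all 4, by 0.45 to 0.68. Gadd45b and Gadd45g, which have been linked to active demethylation, rose in lymph node Tregs by 1.43 and 1.90. Their group means were also higher in Foxp3+ than in Foxp3- cells at CD24int (8.58 against 7.69, and 9.10 against 7.60). The same held at CD24lo (8.74 against 7.95, and 8.85 against 7.54). At CD24hi Gadd45b was at 8.31 against 8.44 and Gadd45g at 8.64 against 8.13. Cxxc5, a CXXC-domain protein that binds CpG DNA, fell by 3.72 at CD24lo and had risen by 2.75 from Foxp3- CD24int to CD24lo, the step in which Dnmt3b and the NK, NKT and gamma delta T cell markers rose.

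Of 6 measured methyl-CpG readers, 1 was higher and 1 lower at CD24hi, 3 and 0 at CD24int, 1 and 0 at CD24lo, and 1 and 0 in lymph node. Zbtb4, which binds methylated CpG, rose by 0.69 at CD24int and 1.09 at CD24lo. Of 10 measured genes of the methyl donor cycle, 0 rose and 2, 3, 4 and 1 fell in these comparisons, of which the first and last counts, 20% and 10%, lay near the share of all genes. Mthfd1, an enzyme of folate metabolism, fell by 0.31, 0.35 and 0.73 at the 3 stages. The 6 Treg genes with a known demethylated region, Foxp3 and Il2ra among them, were higher in Tregs in each of the 4 comparisons, with medians of 3.63 to 5.03, and the sort itself used Foxp3 and CD25.

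The order of the groups was not resolved at every place. Between neighbours in the order of the 9 means, the 3 arrays of each overlapped in 8 of 8 pairs for Dnmt1, Tet3 and Mbd4, in 6 of 8 for Uhrf1, Tet2 and Mbd2, in 5 of 8 for Dnmt3b and Tet1, and in 4 of 8 for Dnmt3a. Uhrf1 ran from precursors at 9.23 to naive cells at 6.32, which lay below the next group, Foxp3+ CD24lo at 7.29. Tet1 ran from Foxp3- CD24hi at 8.68 to lymph node Tregs at 6.12. Dnmt3a ran from precursors at 10.08 to naive cells at 8.56.

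For the 6 members whose group means spanned at least 1 log2 unit, the genes with the most similar profile over the 27 arrays were taken among 3138 genes of at least that span. Uhrf1 was most like Cenpk, Mcm5 and Gins1 (Pearson's r = 0.96 each), and Dnmt1 most like H2ax, Spc25 and Cdt1 (0.90, 0.89 and 0.89). Dnmt3a was most like Zfp219, Cul7 and Purg (0.95, 0.93 and 0.92), and Dnmt3b most like Ppic, Zfp783 and Fasn (0.95, 0.92 and 0.92). Tet1 was most like Dusp10, Kcnmb4 and Satb1 (0.92, 0.91 and 0.91), and Tet2 most like Golgb1, Tert and Gramd1b (0.91, 0.86 and 0.86).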

How the data were processed

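The deposited values are probe set intensities that the authors made with RMA, per the submitters' processing notes, which give no version or settings. Labelling started from 50 ng of total RNA, per the labels' protocols. Values of 3.55 to 24083 with array medians of 30.3 to 32.0 were read as linear and transformed to log2 with no constant. The platform annotation gave 1 symbol for 34958 of 45101 probe sets. Each of 18194 genes took the brightest of its single-symbol probe sets. limma 3.58.1 in R 4.3.3 fitted 9 group means on 27 arrays, with 15 contrasts and an F test, two-sided, adjusted by Benjamini-Hochberg over all genes. The fit was tested on simulated data. The number of arrays limits precision; the median SE of a difference was 0.15.

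The members and lists were chosen with earlier results of these data known. Members were named throughout, and the 3 sort genes in the check of the sort. Of each pathway list, up to 3 called genes with the smallest p per comparison could be named, and for likeness the 3 highest r. Replicate numbers come from the leading digit of the sample codes, whose meaning no label gives. Same-numbered arrays deviated together, every pair above r = 0.1, in 9 of 15 comparisons, from the data alone: there the blocked value stands beside a result it changes. Alternatives were quantile normalization, leaving out dim genes, the mean or each other probe set, the block, the compared groups alone, each array left out and, chosen after seeing the data, replicates 2 and 3 alone. RefSeq promoters are of GRCm38.p6.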

Additional observations from a re-analysis of the deposited data

Results flagged for a closer look

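In 5 cases a member changed differently in Tregs and conventional cells over the same step, by a limma interaction test. In the late thymic step, CD24int to CD24lo, the Foxp3+ change minus the Foxp3- change was -1.39 ± 0.18 log2 units for Dnmt3b (adjusted p = 1.17e-05) and 0.98 ± 0.27 for Tet1 (0.0304). For the step from CD24lo thymocytes to lymph node it was 2.99 ± 0.43 for Uhrf1 (1.86e-05), 1.27 ± 0.18 for Dnmt3b (1.48e-05) and 0.96 ± 0.31 for Dnmt1 (0.0458). Of all genes, 4.97% were called in the late-step test and 11.0% in the lymph node test. Both tests use the Foxp3- CD24lo arrays, where the NK, NKT and gamma delta T cell markers were highest. Both Dnmt3b values thus share its mean of 8.64 there, against 7.61 in Foxp3- CD24int and 7.62 in naive cells. The part of those cells was not tested. Leaving out 1 array lost the Tet1 call in 8 of 27 fits and the Dnmt1 call in 13 of 27.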

How the results depend on the processing

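Of 39 member differences called over the 15 comparisons, 38 stayed called after quantile normalization, 39 without dim genes, 39 with the replicate block, 32 in fits of the compared groups alone, 31 with replicates 2 and 3 alone and 29 for the mean of all probe sets. The 8 lost with replicates 2 and 3 alone were Dnmt3b at CD24hi and in lymph node, Tet1 in the late-step interaction and from precursors to Foxp3+ CD24hi, Dnmt3a in the late Foxp3- step, Tet2 and Mbd2 between precursors and Foxp3- CD24hi, and Mbd2 from Foxp3- CD24lo to naive cells. The 7 lost in the compared groups alone were Dnmt3a at CD24hi, in the late Foxp3- step and in precursors, all 3 calls of Mbd2, and Uhrf1 from precursors to Foxp3+ CD24hi. Quantile normalization lost Dnmt1 in the lymph node interaction. The mean of all probe sets lost 6 calls of Dnmt3a and all 3 of Mbd2. Over each other probe set in place of the representing one, 42 of 83 called values stayed called, 35 were lost and 6 reversed. Calls were gained as well, 3 after quantile normalization, 2 without dim genes, 6 for the mean of all probe sets and 4 with replicates 2 and 3 alone. The compared groups alone added Tet2 at CD24hi, Tet1 at CD24lo and Dnmt1 between lymph node Tregs and Foxp3+ CD24lo. The block added 13 calls. The share of all genes called with the block is not given here. The block raised the count of members called to 7 at CD24hi, to 1 in the early Foxp3- step and to 4 between lymph node Tregs and Foxp3+ CD24lo. That last count was 2 under quantile normalization, in the compared groups alone and with replicates 2 and 3 alone. The count between precursors and Foxp3- CD24hi was 2 for the probe set mean, in the compared groups alone and with replicates 2 and 3 alone, and that between Foxp3+ CD24hi and precursors was 2 in the compared groups alone. The late-step interaction gave 1 with replicates 2 and 3 alone. Leaving out 1 array gave 1 to 2 members for the late-step interaction and 2 to 5 between precursors and Foxp3- CD24hi. Directions reversed for Dnmt3a at CD24hi with the probe set mean (-0.24) and with 1423064_at (-0.77), 1423065_at (-0.36) and 1423066_at (-0.83), for Dnmt3a at CD24lo with 1423064_at (-0.10), and for Tet1 with 1419897_at at CD24hi (0.12) and between Foxp3+ CD24hi and precursors (0.21). The cause was not tested. Where the numbers did not pair the samples, the block added Dnmt3b at CD24int and Mbd4 in the late-step interaction.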
